A study of Mus musculus with 2 samples.

Results

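A set of 5 genes of the HCN and Kv7 channel families is described here in dorsal root ganglia of mice with experimentally dried skin. They are Hcn2, Hcn3 and Hcn4 and the Kv7 genes Kcnq3 and Kcnq5, chosen by gene symbol with earlier results of these data known, so 5 of the 23238 different symbols in the tables are covered. The remaining genes of both families are not reported here. Wild-type mice received acetone, ether and water (AEW), a chemical treatment that dries the skin and produces itch, daily for 5 days, and the ganglia were collected on day 6. Control mice, also wild type, received water. RNA of 6 mice per group was pooled and sequenced, read here as 1 pool and 1 library per group, so no value has a replicate check. No source used here gives age, sex, strain or the spinal level of the ganglia. The AEW library held 14376228 counts and the control library 9333882 counts.

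HCN channels are cation channels that open when the membrane becomes more negative, and the inward current they carry (Ih) brings a neuron back towards its firing threshold. Cyclic AMP binds the inner end of the channel and eases its opening, which couples firing to receptors that raise cyclic AMP. In sensory ganglia HCN2 is best known from nociceptors, where it contributes to inflammatory and neuropathic pain in rodents. Kv7 channels work against firing: they carry the M-current, a slow potassium current that opens near rest and is shut down when receptors coupled to Gq use up the membrane lipid PIP2. The currents of the 2 families therefore pull the membrane potential in opposite directions.

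Both families carry a potassium channel signature in the pore, the glycine-tyrosine-glycine stretch of the selectivity filter, although HCN channels also pass sodium. The coding sequence around that stretch is shown for the 3 HCN genes, the members with the most similar transcripts, because they are told apart in the counts only by their sequence. Each line gives 60 bases of the reference transcript on mm10, 5′ to 3′, with the 3 codons of the signature in capitals.
Hcn2: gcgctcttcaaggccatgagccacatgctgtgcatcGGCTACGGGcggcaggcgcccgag
Hcn3: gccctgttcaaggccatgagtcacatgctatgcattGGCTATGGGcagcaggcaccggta
Hcn4: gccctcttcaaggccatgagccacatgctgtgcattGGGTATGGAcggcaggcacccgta

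The HCN stretches lie within exon 4 of each gene, at chr10:79728923-79728982 on the plus strand for Hcn2, chr3:89150991-89151050 on the minus strand for Hcn3 and chr9:58855555-58855614 on the plus strand for Hcn4. Hcn3 and Hcn4 shared 53 of the 60 bases (88.3%), Hcn2 and Hcn4 52, and Hcn2 and Hcn3 49. Over whole transcripts, the longest identical run was 33 bases between Hcn2 and Hcn3, 32 bases between Hcn4 and either of these, and 14 bases between Kcnq3 and Kcnq5. No member therefore held a 50-base window in common with another member.

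Hcn2 and Hcn3 were about 3-fold higher in the AEW library, while Kcnq5 was not called, and Hcn4 and Kcnq3 were too scarce to compare. Levels are given as counts per 1000000 counts of the library (CPM) after TMM scaling, a correction for differences in library composition. A summed count of at least 20 over both libraries was required for a gene to count as measured, which 3 of the 5 members reached. It was called higher or lower when its AEW to control ratio was at least 1.5-fold and the exact 95% counting interval excluded 1. Of the 3 measured members 2 were called higher and none lower. Over all 14854 measured genes, 17.3% were called higher and 14.9% lower. Both HCN genes were also called when the interval had to exclude 1.5-fold, as were 8.93% of all genes. The intervals cover counting error only and compare 2 libraries, not the treatments.

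**Figure D1:**
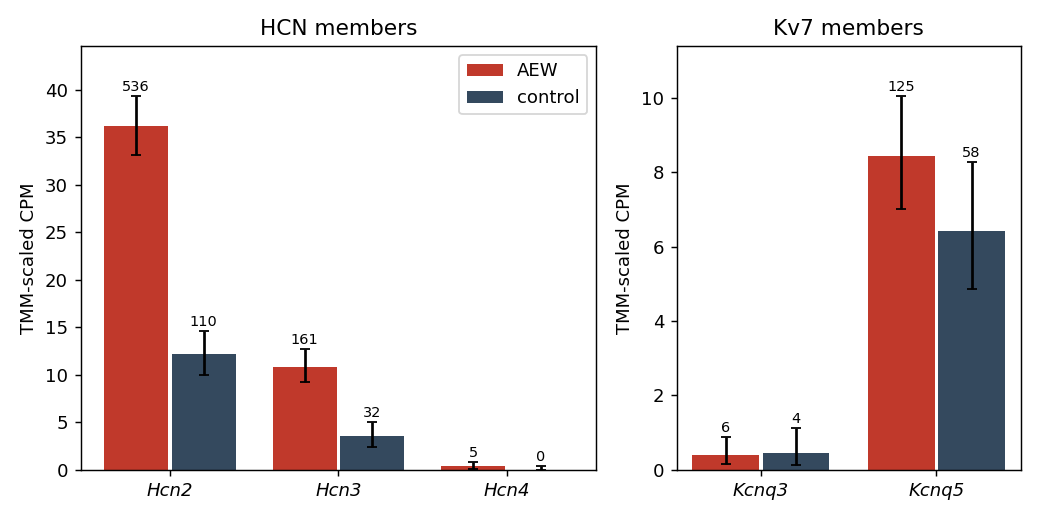
Scaled CPM of each member in the AEW library (left bar of each pair) and the control library (right bar), with exact 95% Poisson intervals and raw counts printed above the bars. The AEW and control intervals of Hcn2 (36.2 and 12.1 CPM) and of Hcn3 (10.9 and 3.53 CPM) do not overlap, while those of Kcnq5 (8.43 and 6.41 CPM) and Kcnq3 do.

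Hcn2 encodes the HCN subunit of many nociceptors (ENSMUSG00000020331.9, chromosome 10, 79716634 to 79736108, plus strand). It had 536 counts in the AEW library and 110 in the control library, or 36.2 CPM (95% counting interval 33.2 to 39.4) and 12.1 CPM (9.99 to 14.6). The level was 2.98-fold higher in the AEW library (2.42 to 3.69), a log2 ratio of 1.57, and 3.60% of measured genes had a higher ratio. Hcn2 had more counts than any other member in both libraries. Its level exceeded that of 66.7% of measured genes in the AEW library and of 40.3% in the control library.

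Hcn3 encodes an HCN subunit that responds little to cyclic AMP (ENSMUSG00000028051.10, chromosome 3, 89146074 to 89160196, minus strand). Its counts were 161 in the AEW library and 32 in the control library, or 10.9 CPM (9.25 to 12.7) and 3.53 CPM (2.42 to 4.99). The level was 3.07-fold higher in the AEW library (2.09 to 4.64), a log2 ratio of 1.62. Hcn3 and Hcn2 thus had nearly the same ratio at different depth of counting. The ratio of Hcn2 divided by that of Hcn3 was 0.97 (0.61 to 1.51), so a difference between them within that range was not detectable.

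The 3' ends of Hcn3 and Pklr, the gene of a pyruvate kinase of liver and red blood cells, run into each other from opposite strands. Their annotated exons overlap by 711 bases, and 662 of the 3953 windows of 50 bases in the Hcn3 transcript (16.7%) occur in Pklr. No source used here says whether strand was used in counting, so reads in the overlap cannot be assigned with certainty. The overlap lies at the 3' end of Hcn3. If reads came only from 3' ends, the share of Hcn3 counts within it could be well above 16.7%. How many counts came from the overlap was not tested. Pklr had 47 counts in the AEW library and 14 in the control library, a ratio of 2.05 (1.11 to 4.03). With the counts of both genes summed, a check added after the data were seen, there were 208 counts in the AEW library and 46 in the control library, 2.76-fold higher (1.999 to 3.89).

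Hcn4, the main subunit of the pacemaker current in the sinoatrial node of the heart (ENSMUSG00000032338.9, chromosome 9, 58823412 to 58863175, plus strand), had 5 counts in the AEW library and 0 in the control library. A count of 0 allows up to 3 counts, which is 0.331 CPM in the control library, and the 0.337 CPM of the AEW library was 1.02 times that limit. A difference in Hcn4 was not detectable at this depth. Of 7 markers of heart muscle and pacemaker cells 3 were measured and none was called, with summed levels of 54.6 CPM in the AEW library and 45.1 CPM in the control library. Most of these counts came from the transcription factor genes Shox2, with 505 counts in the AEW and 242 in the control library, and Tbx3, with 280 and 139.

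The division of counts among the 3 HCN genes, which does not depend on library scaling, was nearly the same in both libraries. Hcn2 took 76.4% of the 702 counts of these genes in the AEW library (exact binomial interval 73.0 to 79.5) and 77.5% of 142 in the control library (69.7 to 84.0). Hcn3 took 22.9% in the AEW library (19.9 to 26.2) and 22.5% in the control library (16.0 to 30.3). Hcn4 took 0.712% in the AEW library (0.232 to 1.65) and 0 of 142 counts in the control library, with an exact upper bound of 2.56%. The intervals of each gene overlapped between the libraries. The summed level of the 3 genes was 47.4 CPM in the AEW library and 15.7 CPM in the control library, 3.02-fold higher (2.52 to 3.64).

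Kcnq5 encodes a Kv7 subunit of neurons and muscle (ENSMUSG00000028033.16, chromosome 1, 21398403 to 21961942, minus strand). Its counts were 125 in the AEW library and 58 in the control library, or 8.43 CPM (7.02 to 10.05) and 6.41 CPM (4.86 to 8.28). The ratio was 1.32 (0.96 to 1.83), a log2 ratio of 0.40, and the interval covers both equality and a 1.83-fold higher level. Its exons overlap those of Gm26580, a long non-coding gene on the opposite strand that was not analysed here, by 237 bases. After correction for the GC content of the last 500 transcript bases the Kcnq5 ratio was 1.56 (1.14 to 2.17) and was called higher, with 15.5% of all genes called higher in that setting.

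Kcnq3, whose product joins other Kv7 subunits in the M-channel (ENSMUSG00000056258.9, chromosome 15, 65986387 to 66286642, minus strand), gave 6 counts in the AEW and 4 in the control library. These are 0.405 CPM (0.149 to 0.881) and 0.442 CPM (0.120 to 1.13). The ratio of 0.92 had an interval of 0.22 to 4.42, so a level up to 4.42-fold higher or 4.60-fold lower was not detectable as a difference. The summed level of the 2 Kv7 genes was 8.84 CPM in the AEW library and 6.85 CPM in the control library, a ratio of 1.29 (0.95 to 1.78).

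The 2 families were set against each other after their values had been seen. The Hcn2 ratio was 2.26 times that of Kcnq5 (1.52 to 3.33), and the Hcn3 ratio was 2.33 times that of Kcnq5 (1.39 to 3.95). Both intervals excluded 1, for counting error in these libraries. The result for Hcn2 depends on base composition: after correction for GC content of the last 500 bases it was 1.33 (0.90 to 1.96), and after correction over the whole transcript 1.77 (1.20 to 2.61). The value for Hcn3 was 1.82 (1.09 to 3.09) and 2.01 (1.20 to 3.41) under the same corrections.

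Levels of different genes were compared per kilobase of the reference transcript, which assumes that reads fall along whole transcripts. The labels name a Lexogen QuantSeq kit, but no source used here says whether reads came only from 3' ends. If they did, levels per kilobase would not apply, nor would the order of genes on that scale. In the AEW library Hcn2 stood highest at 11.3 CPM per kilobase (10.4 to 12.3), followed by Hcn3 at 2.71 (2.31 to 3.17) and Kcnq5 at 1.21 (1.01 to 1.44). In the control library Hcn2 stood at 3.80 CPM per kilobase (3.13 to 4.58), Kcnq5 at 0.918 (0.697 to 1.19) and Hcn3 at 0.883 (0.604 to 1.25). On this scale Hcn3 and Kcnq5 differed beyond their counting intervals in the AEW library and overlapped in the control library. Before division by length their CPM intervals overlapped in the AEW library too, at 9.25 to 12.7 for Hcn3 and 7.02 to 10.05 for Kcnq5. Hcn4 and Kcnq3 lay below 0.1 CPM per kilobase in both libraries, and their order could not be told.

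The HCN members share a high GC content over whole transcripts, which the choice of genes did not use. The Hcn2 transcript holds 65.4% GC, more than 99.6% of measured genes, and its last 500 bases hold 70.2%, more than 99.96% of measured genes. Whole-transcript values were 58.0% for both Hcn3 and Hcn4, 47.7% for Kcnq5 and 44.4% for Kcnq3, against a median of 50.2% over measured genes. Over the last 500 bases the HCN members were less alike. Hcn3 held 49.8% GC there, more than 72.9% of measured genes, and Hcn4 50.2%, more than 74.3%. Kcnq5 held 32%, more than only 6.41% of measured genes, and Kcnq3 36.8%, where the median was 44%. Over the range of the members, ratios tended to be higher at higher GC content. The fitted trend at the GC content of Hcn2 lay 0.33 above the median log2 ratio for the whole transcript and 0.51 above it for the last 500 bases. After these corrections Hcn2 was 2.37-fold (1.93 to 2.94) and 2.09-fold (1.70 to 2.58) higher, and Hcn3 2.70-fold (1.84 to 4.08) and 2.85-fold (1.94 to 4.31) higher, so both stayed called.

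Most pan-neuronal markers were also higher. Of 22 such markers, 15 were called higher, 7 were not called and none was called lower, where 17.3% of all measured genes were called higher. Their median log2 ratio was 0.88, compared with 0.03 over all measured genes. Rbfox3, the gene of the neuronal nuclear protein NeuN, was 3.31-fold higher (3.03 to 3.62) and Syn1, a synaptic vesicle protein, 2.62-fold higher (2.36 to 2.92). Gap43, a growth cone protein, had a ratio of 1.05 (0.99 to 1.11) and Map2, a dendritic microtubule protein, 0.86 (0.80 to 0.92). Of these 22 markers 1 had a higher ratio than Hcn2 or Hcn3, while 17 had a higher ratio than Kcnq5. In ganglion RNA a larger share of neurons and more RNA per neuron cannot be told apart.

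**Figure D2:**
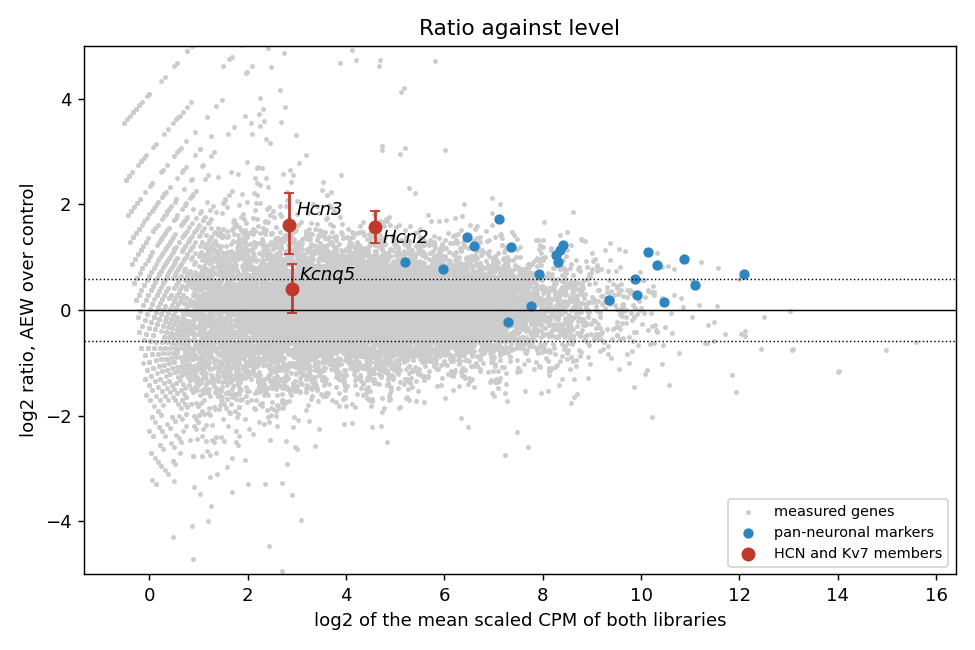
Log2 ratio of AEW over control against the log2 of the mean scaled CPM for all measured genes (grey), pan-neuronal markers (blue) and the 3 measured members (red, with 95% counting intervals). Dotted lines mark 1.5-fold. Hcn2 and Hcn3 lie at 1.57 and 1.62, above all pan-neuronal markers except 1, and Kcnq5 lies at 0.40; 136 measured genes with a count of 0 in 1 library are left out, and 71 lie beyond the axis.

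When the libraries were scaled on the median of the pan-neuronal markers, the ratio of Hcn2 was 1.61 (1.31 to 1.998) and that of Hcn3 1.66 (1.13 to 2.52). Both stayed called higher, in a setting where 3.09% of all genes were called higher. Intervals on this scale treat the marker median as fixed and leave out the spread of the 22 markers, from -0.22 to 1.73 in log2 ratio. Kcnq5 then had a ratio of 0.71 (0.52 to 0.99), below 1 but not called, so its direction turned with the scaling. On that scale the median log2 ratio of all genes was -0.85, and 459 genes were called higher and 9628 lower, beside 2577 and 2220 with TMM scaling. With the further demand that a ratio lie over 3 scaled median absolute deviations away from 500 genes of similar level, which 1.06% of all genes met in the higher direction, neither HCN gene was called. Hcn2 lay 2.94 and Hcn3 2.08 such deviations above its neighbours. Pan-neuronal scaling and GC correction were not applied together. After the whole-transcript GC correction the log2 ratio was 1.25 for Hcn2 and 1.43 for Hcn3, beside a pan-neuronal median of 0.81. After the last-500-base correction these were 1.06 and 1.51 beside 0.78, so Hcn2 lay closer to the markers than without correction. The log2 interval of Hcn2, 0.76 to 1.37, then included the marker median, while that of Hcn3, 0.96 to 2.11, lay above it. After the whole-transcript correction the intervals of Hcn2 (0.95 to 1.56) and Hcn3 (0.88 to 2.03) lay above the marker median.

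**Figure D3:**
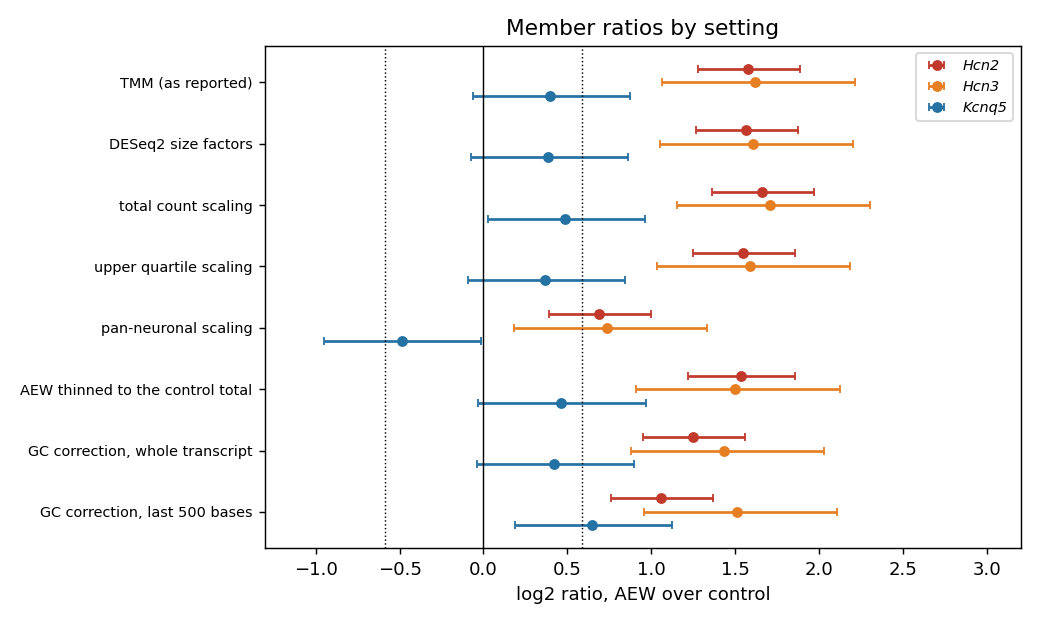
Log2 ratio of AEW over control for Hcn2, Hcn3 and Kcnq5 with 95% counting intervals under each scaling, thinning or GC setting. Dotted lines mark 1.5-fold. The points of Hcn2 and Hcn3 stay right of the upper line in all 8 settings (lowest 0.69 and 0.74, with pan-neuronal scaling). With pan-neuronal scaling their intervals cross that line, starting at 0.39 and 0.18. The points of Kcnq5 lie between -0.49 and 0.65.

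Markers of single neuron classes were counted in the same way. Of 12 nociceptor markers 6 were called higher and none lower, against 17.3% and 14.9% of all measured genes, with a median log2 ratio of 0.61. Mrgprd, a receptor of non-peptidergic nociceptors, was 4.37-fold higher (3.94 to 4.85). The peptide genes Calca and Calcb had ratios of 0.91 (0.90 to 0.93) and 1.02 (0.96 to 1.07). Of 12 markers of large myelinated neurons 3 were called higher and none lower, a share higher near that of all genes, with a median of 0.15. Among these Ntrk3, the receptor of neurotrophin 3, and Cntnap2, an adhesion protein of axons, were 1.86-fold (1.69 to 2.05) and 1.87-fold (1.67 to 2.10) higher, whereas the transcription factors Etv1 and Runx3 had ratios of 0.79 (0.71 to 0.88) and 0.74 (0.59 to 0.94).

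The labels name the cells as neurons, but RNA of other cells was present. Schwann cell markers summed to 16407 CPM in the AEW library and 19272 CPM in the control library, with 2 of 7 called lower. Satellite glia markers summed to 7461 and 8411 CPM, with 1 of 6 called lower. Beside these, 14.9% of all measured genes were called lower and 17.3% higher, so the satellite glia share is near that of all genes. All 9 macrophage markers were lower, at 265 CPM in the AEW library and 667 CPM in the control library, as were all 7 skeletal muscle markers, at 682 and 1742 CPM. Of 5 oligodendrocyte markers 3 were called lower, and the list summed to 122 and 209 CPM. Most of this came from Mag (63.0 and 68.5 CPM), which is also in the Schwann cell list, and Cldn11 (49.9 and 121 CPM). All 8 keratinocyte markers were higher, at 669 CPM in the AEW library and 24.1 CPM in the control library. The part of these cells in the HCN and Kv7 values was not tested.

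Of 12 listed genes of proteins that bind HCN channels or set their number, 10 were measured, and 1 was called higher and 2 lower. Their share called, 3 of 10, is near the 32.3% of all measured genes called in either direction. The median log2 ratio of the list was -0.12, and that of all measured genes 0.03. Pex5l encodes TRIP8b, the auxiliary subunit that governs the traffic of HCN channels in neurons, and was named after its value was seen. It had 76.5 CPM in the AEW library and 62.5 CPM in the control library, a ratio of 1.22 (1.11 to 1.36). Nedd4l, a ubiquitin ligase of several membrane channels, was 2.01-fold higher (1.86 to 2.16), and Vapb, a membrane contact protein that raises HCN currents, had a ratio of 1.45 (1.36 to 1.55) and was not called. Lrmp, which modifies the response of HCN4 to cyclic AMP, was 4.49-fold lower (2.85 to 7.25) and Grasp, a scaffold protein, 1.85-fold lower (1.37 to 2.51).

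Genes that set cyclic AMP, the ligand of HCN channels, were called higher in 5 and lower in 1 of 25 measured, against 17.3% and 14.9% of all measured genes. The share higher is thus near that of all genes. The other 19 were not called, and the median log2 ratio was 0.28. Gnao1 and Gnaz, alpha subunits of inhibitory G proteins, were 2.17-fold (2.10 to 2.24) and 2.003-fold (1.78 to 2.26) higher. The adenylyl cyclase gene Adcy7 was 1.60-fold lower (1.29 to 1.98), and the phosphodiesterase gene Pde8b had a ratio of 0.70 (0.61 to 0.81). The other 3 genes of this list were called higher were named after their values were seen. They are the cyclases Adcy3 at 1.69-fold (1.24 to 2.34) and Adcy5 at 1.73-fold (1.35 to 2.22), and the phosphodiesterase Pde10a at 2.54-fold (1.72 to 3.86).

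Partners and regulators of Kv7 channels were called higher in 7 and lower in 3 of 19 measured, against 17.3% and 14.9% of all measured genes. The share lower is near that of all genes. The other 9 were not called, and the median log2 ratio was 0.34. Sptbn4, the beta-IV spectrin of the axon initial segment and nodes, was 3.69-fold higher (2.34 to 6.09), and Prmt1, an arginine methyltransferase, 2.26-fold higher (2.03 to 2.52). Rest, a repressor of neuronal genes that is known to act on Kv7 genes in sensory neurons, was 1.99-fold lower (1.72 to 2.29). Akap5, an anchoring protein that brings protein kinase C to the M-channel, was 2.26-fold lower (2.24 to 2.27), but its row held 148997 counts in the AEW library and 205584 in the control library, far above the other genes of the list. Ank3, the ankyrin that holds Kv7 channels at the initial segment, was named after its value was seen and had a ratio of 1.16 (1.12 to 1.20).

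Receptors close Kv7 channels through the Gq and PIP2 pathway. Of 21 measured genes of this pathway 3 were called higher and 2 lower, against 17.3% and 14.9% of all measured genes, and the median log2 ratio was 0.01. Pip5k1c, a kinase that makes PIP2 in neurons, was 2.38-fold higher (2.06 to 2.76), while Gnaq, the alpha subunit of Gq, had a ratio of 1.42 (1.36 to 1.48). The inositol trisphosphate receptor genes Itpr2 and Itpr1 were 1.89-fold (1.69 to 2.11) and 1.60-fold (1.34 to 1.91) lower. The bradykinin receptor genes Bdkrb1 and Bdkrb2, named after their values were seen, had 0 counts in both libraries. With pan-neuronal scaling the median log2 ratios of the HCN partner, cyclic AMP, Kv7 partner and Gq lists were -1.00045, -0.60, -0.55 and -0.87, so the sign turned for the last 3.

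**Figure D4:**
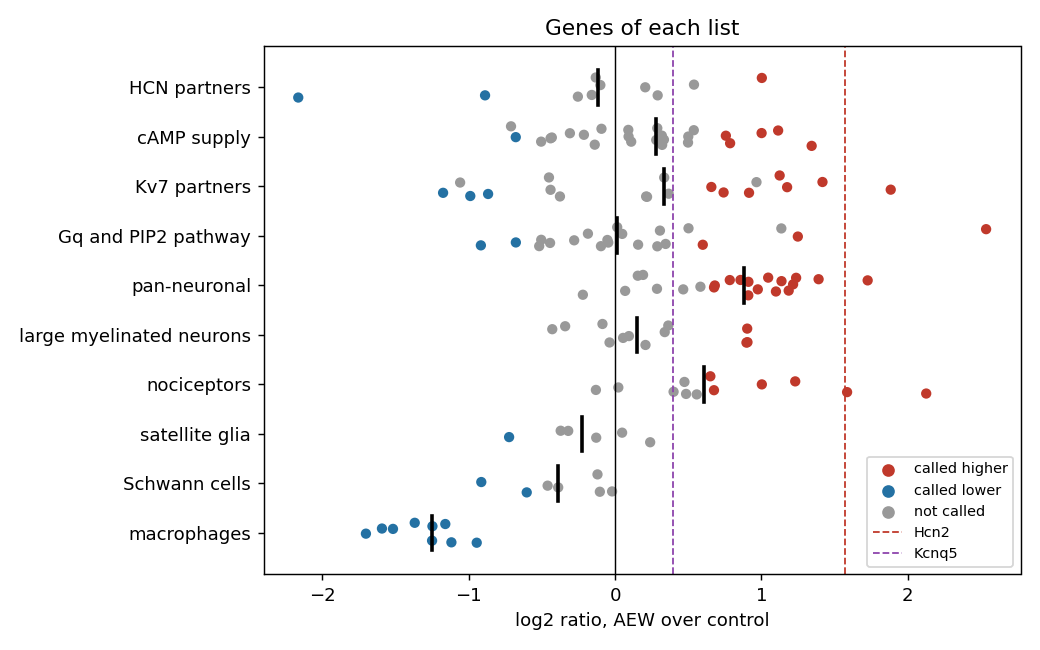
Log2 ratio of AEW over control for each measured gene (points) of 4 pathway lists and 6 cell type lists, with the median of each list as a black bar and the ratios of Hcn2 and Kcnq5 as dashed lines. Medians run from -1.25 for macrophage markers to 0.88 for pan-neuronal markers, and 1 gene in each of the pan-neuronal, Kv7 partner and Gq lists and 2 nociceptor markers lie right of Hcn2 at 1.57.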

How the data were processed

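Total RNA was extracted with Trizol, and libraries were made from it with a Lexogen QuantSeq kit, per the labels' protocols. Bowtie2, bedtools and the mm10 build are listed in the submitters' processing notes. No source used here gives versions, gene annotation, strand or the treatment of multiply mapped or duplicate reads. The deposited values are raw read counts per gene symbol, not normalized, in 23282 rows per library, of which 79 share 35 repeated symbols. Those rows stayed in the totals and out of the calls.

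From the deposited counts, TMM factors (edgeR 4.0.16, R 4.3.3) of 1.03 for the AEW and 0.970 for the control library, scaled CPM and AEW to control ratios were computed, with exact conditional binomial (Clopper-Pearson) intervals from scipy 1.17.1. With 1 library per group no test across animals was made and no p-value computed. Calls were first tried on simulated counts with counting error only. Such counts cannot show how the calls behave under variation between animals or dissections. Ratios between members are conditional odds ratios of their counts. Members, lists and rules were chosen with earlier results of these data known. In each list up to 4 genes with 50 or more summed counts are named, the 2 with the highest lower and the 2 with the lowest upper bound; the rule also takes the remaining genes of both families and some list members, which are not reported here. For lists of heart, keratinocyte, glial, macrophage, muscle and oligodendrocyte markers counts and sums are given, with single genes only where they made up most of a sum. Gene positions and sequences are from GENCODE M21 on mm10, 1-based, using the longest protein-coding transcript. GC trends were fitted with lowess (statsmodels 0.14.6) over the 95.4% of measured genes with a transcript. Alternatives were DESeq2 1.42.0 size factors, total count, upper quartile and pan-neuronal scaling, other filters, thinning, stricter call rules and GC corrections.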

Additional observations from a re-analysis of the deposited data

How the results depend on the processing

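Hcn2 and Hcn3 stayed called higher under DESeq2, total count, upper quartile and pan-neuronal scaling, without a filter, with a summed count of at least 100, after thinning, with an interval that excludes 1.5-fold and after both GC corrections. Their log2 ratios ran from 0.69 to 1.66 and from 0.74 to 1.71, with each setting applied alone. With the limit of 3 scaled median absolute deviations they kept 1.57 and 1.62 but were not called, so 0 members were called higher. Kcnq5 was -0.49 with pan-neuronal scaling and 0.65, called higher, once corrected for GC content of the last 500 bases. Kcnq3, at 10 counts in all, was 0.23 after thinning, 0.0024 after the whole-transcript and 0.019 after the last-500-base GC correction, and the Hcn2 to Kcnq5 ratio was 1.33 after the latter. Pan-neuronal scaling lowers every log2 ratio by the marker median of 0.88, a GC correction moves each by its fitted trend, and thinning draws counts at random. These turns follow from those shifts. What lies behind the marker median and the GC trend was not tested. The 4 pathway lists, with 10, 25, 19 and 21 measured genes, had 16 genes called higher and 8 lower. With an interval that excludes 1.5-fold these were 10 and 4, with the deviation limit 0 and 0, and with pan-neuronal scaling 1 and 44. Over all 14854 measured genes 2577 were called higher and 2220 lower with the main rule (17.3% and 14.9%). With the changed settings, in the same order, the counts over all genes were 1327 and 1071, 157 and 74, and 459 and 9628. Most of all measured genes were thus called lower with pan-neuronal scaling. No paired analysis was possible because each group has 1 library, and no library could be left out. Depth limits Hcn4 and Kcnq3.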
